A study of Mus musculus with 6 samples.

Results

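The F-box protein genes were examined in the calvaria (skull vault bones) of newborn mice with and without a conditional knockout of Ezh2. Members were all entries of the deposited gene table whose symbol is Fbxl, Fbxo or Fbxw followed by a number, which gave 76 of 23358 genes (18 Fbxl, 37 Fbxo and 21 Fbxw). The family was taken up because Fbxl20 was known to be among the strongest rises in the comparison described here. Fold changes and calls of the members are therefore a description of this data set and support nothing beyond it.

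Total RNA was sequenced from 6 libraries of calvaria of mice aged 2 to 3 days, 3 labelled Ezh2 conditional knockout (cKO, Ezh2_cKO-Osx) and 3 labelled wild type (WT, Ezh2_WT-Osx). Both labels carry Osx, the osterix gene now called Sp7, which encodes a factor that commits cells to the osteoblast lineage. The labels give neither the promoter that drives the deletion nor the alleles of the WT mice. They also do not state separate animals, so p-values cover the spread over these 6 libraries, which may be technical. Each library is called by its group and label number, and values per library follow the order WT 14, 27, 29 and cKO 8, 10, 37. Both groups came from bones briefly digested with collagenase and trypsin and then frozen.

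Gene counts summed to between 60449016 and 95439578 per library. Ezh2, the catalytic subunit of the Polycomb complex PRC2, was at 20.9 ± 0.68 CPM (counts scaled to library size with TMM factors, mean ± SD, n = 3 throughout) in WT and 19.9 ± 0.69 in cKO, and it did not pass the test (edgeR quasi-likelihood test, adjusted p = 0.507). The counts cover the whole gene and the labels do not name the deleted exons, so this does not check the labels. The 9 osteoblast markers, led by Col1a1 and Col1a2, summed to 132152 to 179521 CPM in WT and 98620 to 134469 in cKO, with 1 of them past the threshold (Sp7, 223.5 ± 26.9 and 173.5 ± 9.35 CPM, adjusted p = 0.0211, edgeR), and the 5 chondrocyte markers varied from 771 (cKO 37) to 8196 CPM (WT 27). The summed levels of 8 skeletal muscle and 5 immune markers were lower in every cKO library than in every WT library (13.5 to 15.1 against 19.8 to 21.9 CPM, and 87.2 to 106.6 against 107.8 to 136.7 CPM). This separation of the sums depended on the most abundant gene of each list. By single genes, 4 of the 5 immune markers and 3 of the 6 tested muscle markers had values below 0, and of these only Ttn passed. Without Ttn the muscle sum was 3.98 to 5.08 CPM in WT and 3.93 to 5.44 in cKO, and without Cd68 the immune sum was 44.3 to 48.7 and 38.9 to 49.7, so both overlapped (a check chosen after seeing the data). The summed levels of the other 8 lists overlapped between groups. Within them Sp7 fell, as did the osteoclast enzyme gene Acp5 (605.1 ± 104.6 and 410.6 ± 36.0 CPM, adjusted p = 0.0172, edgeR) and the neuronal tubulin gene Tubb3 (9.79 ± 1.44 and 5.75 ± 1.16 CPM, adjusted p = 0.0131, edgeR). All 5 osteoclast markers had values below 0. Signs were mixed in the other 2 lists: 6 osteoblast markers were below 0 and 3 above, and 2 tested neural markers were below 0 and 3 above. Sp7 kept its call only in the omissions of WT 14 or WT 27 (0.0518 to 0.0789 in the others). Acp5 did not pass without cKO 8 or cKO 37 (0.0544 to 0.0743), nor Tubb3 without WT 29 (0.0582). In bulk bone, fewer cells of a type and less RNA per cell cannot be told apart, and the part of cell composition in the results was not tested.

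F-box proteins are the substrate receptors of SCF ubiquitin ligases. In these complexes the cullin Cul1 holds the RING protein Rbx1, which recruits the ubiquitin-loaded enzyme, and the adaptor Skp1, which binds the F-box motif. Each F-box protein then brings its own set of proteins, often phosphorylated, to be marked for breakdown. The Fbxl proteins bind substrates through leucine-rich repeats, the Fbxw proteins through WD40 repeats, and the Fbxo proteins through other or unknown domains.

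CpG content before the gene start differed between expressed members and a cluster with almost no counts, so 4 examples are shown. Each is the 250 bases upstream of the RefSeq start (GRCm38.p6, the build called mm10), 5′ to 3′ on the strand of the gene, with CpG dinucleotides in capitals. Fbxl20 (chr11:98149617-98149866, minus strand) and its close paralog Fbxl2 (chr9:114026752-114027001, minus strand) were higher in cKO. Fbxl7 (chr15:26895565-26895814, minus strand) was lower. Fbxw14 (chr9:109287677-109287926, minus strand) had no count in any library.
Fbxl20: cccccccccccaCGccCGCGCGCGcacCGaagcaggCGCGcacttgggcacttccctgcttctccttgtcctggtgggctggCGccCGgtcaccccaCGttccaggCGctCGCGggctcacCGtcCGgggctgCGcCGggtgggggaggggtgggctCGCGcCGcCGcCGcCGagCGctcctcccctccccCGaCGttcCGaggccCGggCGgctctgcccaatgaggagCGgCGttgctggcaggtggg
Fbxl2: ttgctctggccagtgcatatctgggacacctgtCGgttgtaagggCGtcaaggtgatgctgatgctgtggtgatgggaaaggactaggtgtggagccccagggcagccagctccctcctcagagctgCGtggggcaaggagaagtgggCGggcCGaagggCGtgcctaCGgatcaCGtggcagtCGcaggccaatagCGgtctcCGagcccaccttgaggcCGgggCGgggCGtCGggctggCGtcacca
Fbxl7: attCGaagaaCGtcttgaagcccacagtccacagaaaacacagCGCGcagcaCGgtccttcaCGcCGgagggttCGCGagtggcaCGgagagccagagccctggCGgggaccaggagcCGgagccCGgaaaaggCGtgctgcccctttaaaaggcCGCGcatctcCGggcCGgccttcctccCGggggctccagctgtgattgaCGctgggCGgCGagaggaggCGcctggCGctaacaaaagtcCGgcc
Fbxw14: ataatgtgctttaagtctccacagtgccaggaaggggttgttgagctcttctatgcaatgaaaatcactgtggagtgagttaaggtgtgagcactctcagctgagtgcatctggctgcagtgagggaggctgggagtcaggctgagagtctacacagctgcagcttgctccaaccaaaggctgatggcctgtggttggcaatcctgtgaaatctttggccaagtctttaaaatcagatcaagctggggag

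Fbxl20 had 32 CpGs in this window, Fbxl7 25, Fbxl2 16 and Fbxw14 0. A promoter was found for 58 of the 76 members. Of the 47 with enough counts to test, 39 (83%) held at least 10 CpGs, with a median of 16. Of the 11 with too few counts, 1 did (9.09%), with a median of 1. Over all 32851 promoters in the table the share was 37.8%. Unlike the 47 members, these were not limited to tested genes or to 1 start per gene, so the shares are not like for like. The members with too few counts are mostly neighbours in 1 gene cluster and are not independent examples. The 7 higher members with a promoter had a median of 13, with Fbxw10 at 1, and only 1 lower member, Fbxl7, had a promoter, so the directions could not be compared. The promoter count was added after the data were seen.

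**Figure D1:**
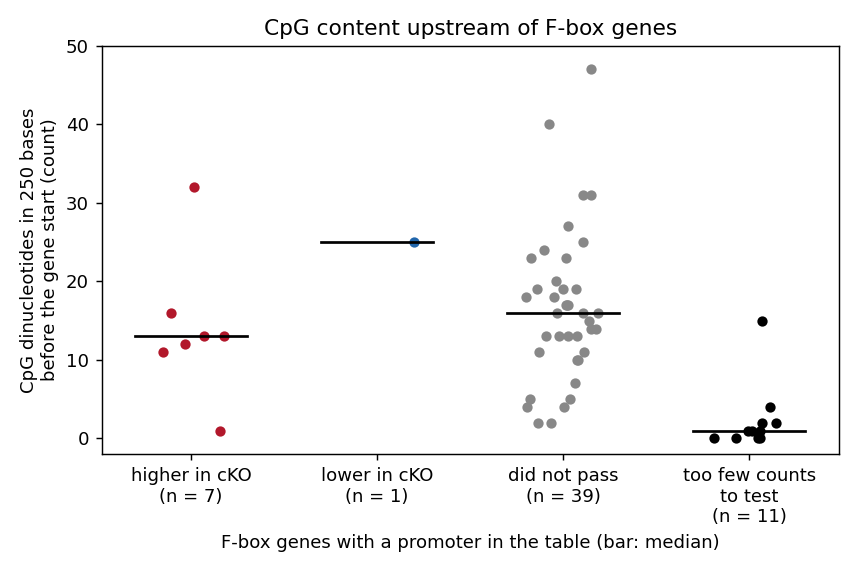
CpG dinucleotides in the 250 bases before the gene start (vertical axis, count) of the 58 F-box genes with a promoter, grouped by their call in cKO against WT (points are genes, bars medians). The 11 genes with too few counts have a median of 1 CpG and the 39 genes that did not pass a median of 16.

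Short motifs were searched on both strands of the same windows. CACGTG, the E-box of clock and Myc factors, was in 2 of 47 tested members (4.26%, against 6.02% of all promoters), which were Fbxl2 and Fbxo10. TGANTCA, the AP-1 site, was also in 2 (4.26% against 6.75%), Fbxl4 and Fbxw5. TGACGTCA, the cyclic AMP response element, was in 1 (2.13% against 1.55%), Fbxw9. TGTTTAC, a forkhead site, was in none of the 58 windows, against 3.17% of all promoters. TGACGTCA and CACGTG share the letters ACGT. All promoters again include genes not tested here. These matches describe letters only.

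Of the 76 members, 62 had enough counts to test and 14 did not. The 14 were Fbxo15, Fbxo39 and 12 Fbxw genes (Fbxw13 to Fbxw16, Fbxw18 to Fbxw22, Fbxw24, Fbxw26 and Fbxw28). The 12 Fbxw genes lie together on chromosome 9 between 109139454 and 109746089 (mm10). In this cluster 7 genes had no count in any library and the highest count was 10, in Fbxw24 of cKO 37. The cluster is a family of closely similar copies. How the counting treated reads that match several copies is not known, so even these counts are uncertain. Fbxo39, named after its values were seen, had counts of 2, 2 and 2 in WT and 10, 8 and 8 in cKO. Every count in the file is even, so 2 is the smallest count above 0.

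Levels of the tested members were compared per gene length with the RPKM values that the authors deposited. The median member was at 3.77 RPKM in WT, near the 4.02 of all tested genes. Fbxw8, the partner of the cullin Cul7, was the most abundant member per length (18.4 ± 0.557 RPKM in WT). It was followed by Fbxw5 (15 ± 1.27), the helicase gene Fbxo18 (14.9 ± 1.04), the beta-TrCP paralog Fbxw11 (14.4 ± 0.61) and Fbxo11, which marks the repressor Bcl6 (13.9 ± 0.413). Fbxw8 stood above the rest, whereas the next 4 lay within about 1 SD of their neighbours in this order. Fbxl20 ranked 18 of 62 in WT at 6.21 ± 0.469 RPKM. The lowest tested members were Fbxo47 (0.134 ± 0.0558), the muscle gene Fbxo40 (0.148 ± 0.0648) and Fbxo16 (0.151 ± 0.0952), which could not be ranked among themselves given their spread.

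**Figure D2:**
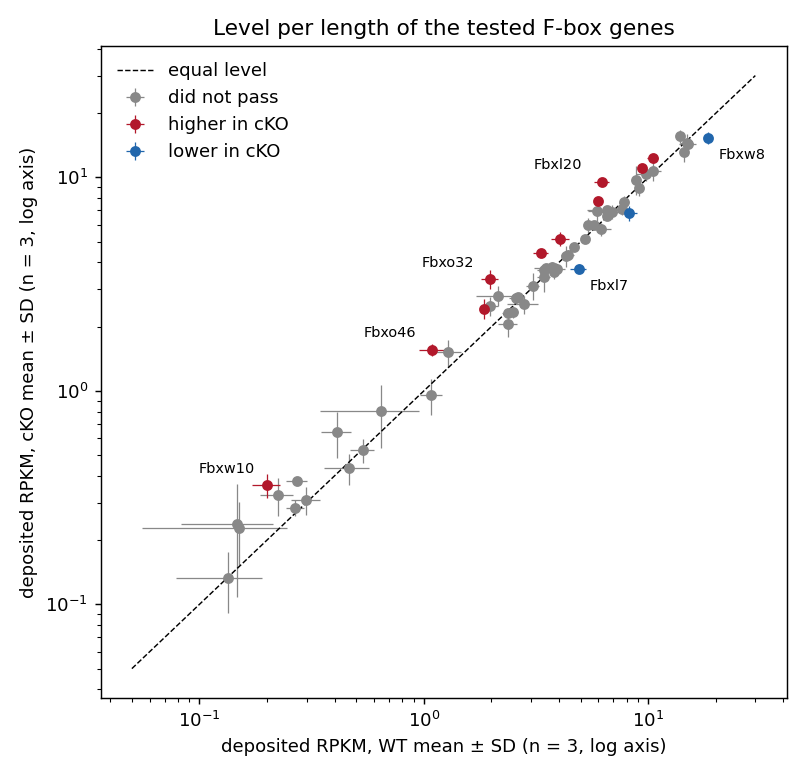
Deposited RPKM of the 62 tested F-box genes, WT mean (horizontal, log axis) against cKO mean (vertical, log axis), with SD bars over 3 libraries and a dashed line of equal level. Fbxw8 is highest at 18.4 RPKM in WT and lies under the line, and Fbxl20 and Fbxo32 lie above it.

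Between the groups, 13 of the 62 tested members (21%) passed an adjusted p of 0.05, against 12.4% of all 16089 tested genes. Higher in cKO were 10 members (5.96% of all genes) and lower were 3 (6.45% of all genes). The groups did not overlap in 23 members (37.1%, against 34.6% of all genes), with all cKO libraries above in 18 (17.2% of all genes) and below in 5 (17.4% of all genes). The median log2 fold change, cKO over WT, was 0.04 in the members and 0.01 in all tested genes. Because the family was picked with this comparison in view, nothing is read from these shares. By class, 4 Fbxl genes were higher and 1 lower of 18, 5 Fbxo genes higher and none lower of 35, and 1 Fbxw gene higher and 2 lower of 9. DESeq2 and limma voom made the same 13 calls, so they also gave 0 lower Fbxo genes. An unadjusted p under 0.05 (edgeR) was seen in 10 of the 35 Fbxo genes, against 4675 of all 16089 tested genes.

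The number of calls depended on single libraries. Without WT 14, WT 27 or cKO 10 it was 7, without WT 29 or cKO 8 it was 5, and without cKO 37 it was 16. Over all genes the share called moved as well, from 3.59% without cKO 8 to 12.2% without cKO 37. Fbxl20, Fbxo32, Fbxo28, Fbxo8 and Fbxl7 passed in every setting tried, including each omission. Fbxw8 was lost without WT 29 or cKO 8 (adjusted p = 0.0629 to 0.0654, edgeR).

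Among the others, Fbxl2 and Fbxw10 were lost without any single library other than cKO 37 (adjusted p = 0.0524 to 0.129, edgeR). Fbxw4 was lost in the same omissions and with upper-quartile scaling (0.0561 to 0.123). Fbxl4 kept its call without WT 14 or cKO 37, Fbxo38 without cKO 10 or cKO 37, and Fbxo46 without WT 27 or cKO 37. In their other omissions the adjusted p was 0.105 to 0.165 for Fbxl4, 0.0823 to 0.13 for Fbxo38 and 0.0551 to 0.0714 for Fbxo46. Without cKO 37, Fbxl21, Fbxo11 and Fbxo41 passed in addition, higher in cKO.

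**Figure D3:**
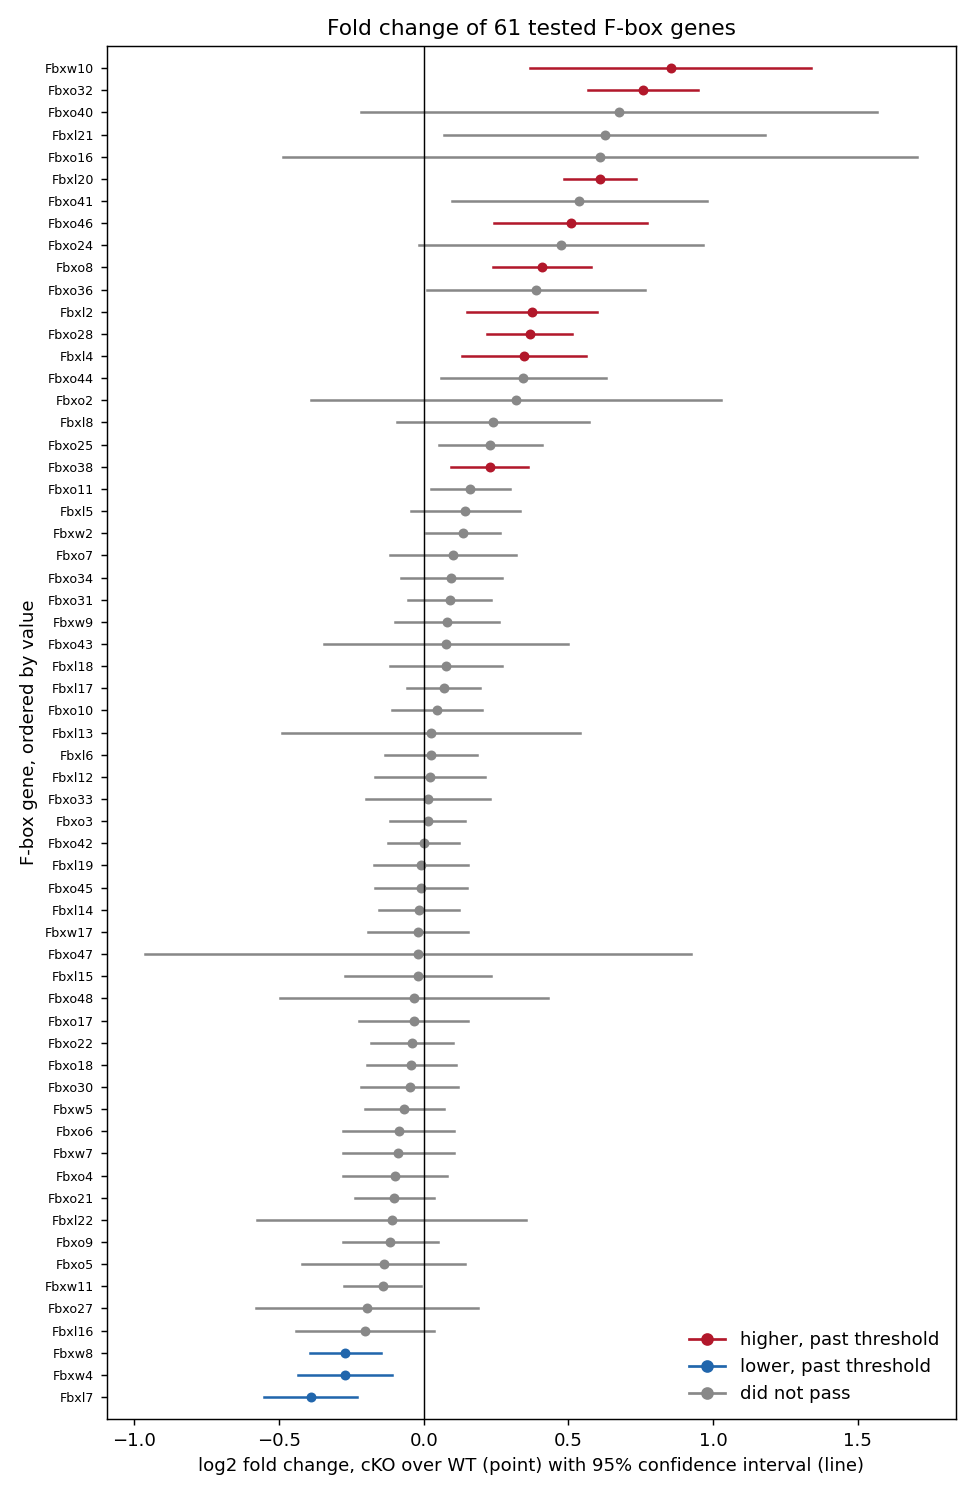
Log2 fold change of 61 of the 62 tested F-box genes in cKO over WT (point) with its 95% confidence interval (line), ordered by value, 3 libraries per group. The 9 genes drawn that were past the threshold and higher are red, the 3 lower are blue, and wide intervals at the top belong to scarce genes such as Fbxo40 and Fbxo16.

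Fbxl20 (chromosome 11, 98082554 to 98149616, minus strand), also called Scrapper, is known from synapses, where it marks the release-zone protein Rim1. Its CPM was 69.9, 74.4 and 71.2 in WT and 112.1, 107.9 and 108.5 in cKO. The 3 cKO libraries were close to each other and all above WT. The mean was 71.8 ± 2.31 in WT and 109.5 ± 2.27 in cKO, a 1.52-fold difference (log2 0.61 ± 0.06, SE, 95% confidence interval 0.49 to 0.73). Leaving out any 1 library gave log2 values from 0.59 to 0.63.

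Fbxl20 took 4.82% to 5.1% of the summed CPM of all members in WT and 7.06% to 7.3% in cKO. The summed CPM was 1449 to 1459 in WT and 1526 to 1537 in cKO, and without Fbxl20 it was 1379 to 1388 and 1417 to 1425. Thus the sum was higher in each cKO library with and without this gene. The TMM-scaled difference was not confined to Fbxl20, but it is a sum over chosen genes and carries no test.

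The genes beside Fbxl20 on chromosome 11 did not pass. To one side lie Stac2 (0.00 ± 0.41, log2), the ribosomal protein gene Rpl19 (0.06 ± 0.09) and Cacnb1 (0.11 ± 0.11). To the other lie Med1, a Mediator subunit (-0.03 ± 0.06), the kinase gene Cdk12 (0.05 ± 0.07) and the microRNA gene Mir5119 (0.98 ± 0.57), which had at most 26 counts in any library. Their adjusted p values ran from 0.287 to 0.999 (edgeR). Rims1, the gene of the synaptic target, was at 2.07 ± 0.114 CPM in WT and 1.9 ± 0.289 in cKO and did not pass (adjusted p = 0.696, edgeR). In GENCODE M21 the exons of Fbxl20 overlap only a same-strand processed transcript, Gm11632, which has no row of its own in the table.

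Fbxl2 (chromosome 9, 113976958 to 114026751), the closest paralog of Fbxl20, encodes a lipid-anchored receptor of inner membranes. Its CPM was 8.06, 7.87 and 8.09 in WT and 10.7, 11.3 and 9.18 in cKO. All cKO libraries were above WT, with cKO 37 nearest. The difference was 1.30-fold (log2 0.37 ± 0.10). Its exons overlap those of Ubp1 on the opposite strand. Ubp1 was far more abundant (102.6 ± 4.86 CPM in WT, 118.0 ± 4.73 in cKO, log2 0.20 ± 0.06, adjusted p = 0.0524, edgeR). No source names the strand setting of the counting, so the Fbxl2 value is uncertain.

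Fbxo32 (chromosome 15, 58175879 to 58214892) encodes atrogin-1, a ligase known for muscle atrophy and induced by FOXO factors. Its CPM was 18.5, 19.2 and 17.3 in WT and 32.6, 26.98 and 33.2 in cKO. The groups stood well apart, with cKO 10 the lowest of its group. The rise was 1.69-fold (log2 0.76 ± 0.09, 95% confidence interval 0.57 to 0.95), and leaving out 1 library gave 0.70 to 0.84. Its exons overlap Gm15943, an antisense gene without a row in the table.

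Of the 8 muscle markers, Ttn (titin) fell from 16.5 ± 0.575 to 9.31 ± 0.519 CPM (adjusted p = 0.000831, edgeR), and no other passed. Tnnt3, the next most abundant, was at 2.79 ± 0.443 and 2.67 ± 0.129 CPM (log2 -0.07 ± 0.16). Acta1, Mylpf and Tnnc2 had values above 0 (log2 0.61 ± 0.40, 0.17 ± 0.39 and 0.14 ± 0.52), so 3 of the 6 tested markers were above 0 and 3 below. Ckm, Myh3, Myh8, Tnnc2, Mylpf and Acta1 were each under 2 CPM in all 6 libraries, and the part of muscle tissue in the Fbxo32 values was not tested. Fbxo40 and Fbxl22, other F-box genes of striated muscle, were at 0.495 ± 0.194 and 2.47 ± 0.642 CPM in WT and 0.79 ± 0.405 and 2.28 ± 0.321 in cKO, with overlapping groups. Fbxo30, a further muscle atrophy ligase, was at 16.3 ± 0.959 and 15.8 ± 0.481. None of these 3 passed (adjusted p = 0.302, 0.774 and 0.723, edgeR). The FOXO genes Foxo1 (-0.08 ± 0.06, log2) and Foxo3 (0.08 ± 0.06) did not pass either (adjusted p = 0.39 and 0.413, edgeR). RNA counts do not measure the activity of FOXO proteins, and their part in the Fbxo32 values was not tested.

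Another 2 Fbxo genes rose in every setting. Fbxo28 (chromosome 1, 182313102 to 182341606), a receptor reported to act on Myc, was at 40.0, 36.2 and 41.8 CPM in WT and 51.0, 52.0 and 49.3 in cKO. The cKO libraries were even and all above WT, by 1.29-fold (log2 0.37 ± 0.07). Fbxo8 (chromosome 8, 56551134 to 56593939), which carries a Sec7 domain as found in exchange factors of ARF GTPases, was at 14.9, 15.1 and 17.3 CPM and 21.1, 20.9 and 20.9 in the same order. That is 1.33-fold (log2 0.41 ± 0.08), with WT 29 nearest to the cKO libraries.

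Fbxl21 was scarce, at 1.31, 0.916 and 1.04 CPM in WT and 2.14, 1.74 and 1.2 in cKO. The groups overlapped, since cKO 37 lay below WT 14, and Fbxl21 did not pass (log2 0.63 ± 0.25, adjusted p = 0.127, edgeR).

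The remaining higher members changed by less or were scarce. Fbxo38 (chromosome 18, 62504059 to 62548743), a receptor of the T cell protein PD-1, was at 55.7, 55.1 and 55.6 CPM in WT and 67.2, 60.7 and 66.9 in cKO (log2 0.23 ± 0.06). Fbxl4 (chromosome 4, 22357565 to 22434046), a mitochondrial protein whose loss causes mitochondrial DNA depletion, was at 14.7, 13.5 and 12.3 against 18.8, 17.4 and 15.3 CPM (log2 0.35 ± 0.10). In Fbxl4 the gap was small, from WT 14 to cKO 37.

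Fbxo46 (chromosome 7, 19119859 to 19138261) was at 3.85, 4.55 and 4.61 CPM in WT and 6.01, 6.19 and 6.32 in cKO (log2 0.51 ± 0.12). Fbxw10 (chromosome 11, 62847123 to 62877462) had the highest fitted ratio of the 62 and one of the lowest levels, 0.765, 0.945 and 0.913 against 1.9, 1.45 and 1.4 CPM (log2 0.85 ± 0.22). Both stood apart between groups. Fbxo46 shares exonic bases with Qpctl on the opposite strand (22.2 ± 1.33 and 21 ± 1.58 CPM, adjusted p = 0.514, edgeR). Fbxw10 shares them with Trim16 on the same strand (21.2 ± 2.93 and 18.3 ± 0.472, adjusted p = 0.167). Both neighbours were far more abundant than the member and did not pass. How reads over shared bases were counted is not known, so the Fbxo46 and Fbxw10 values are uncertain.

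**Figure D4:**
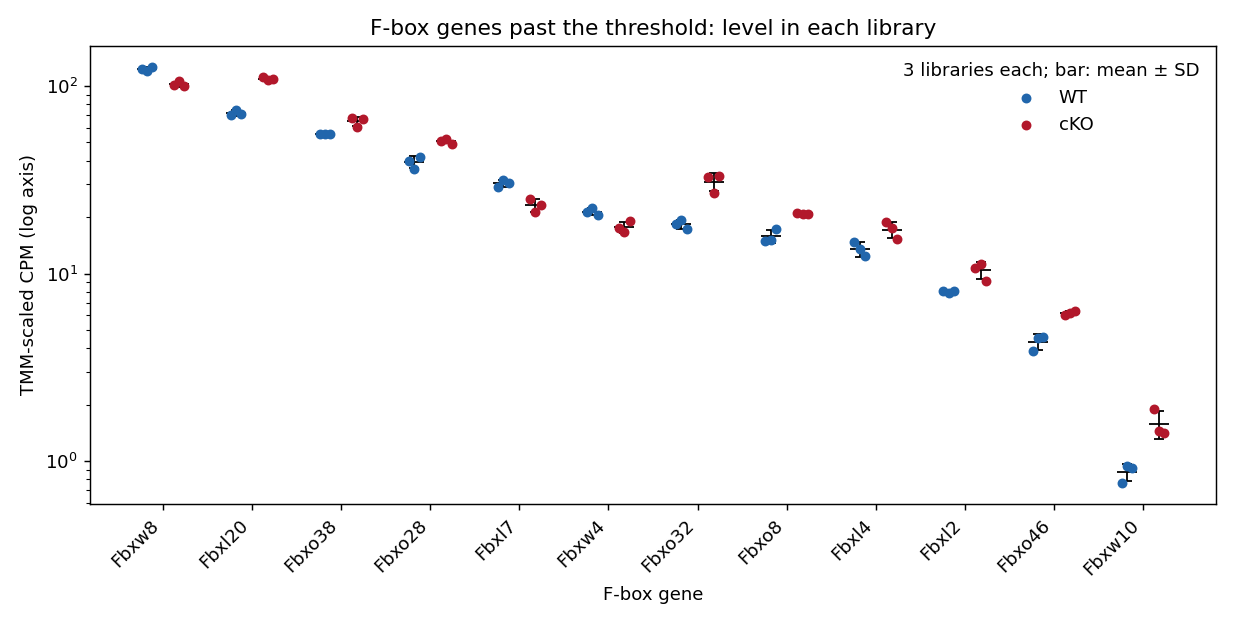
TMM-scaled CPM (vertical, log axis) of 12 of the 13 F-box genes past the threshold in each library (blue WT, red cKO), with mean and SD per group (n = 3 each), ordered by WT level. The groups do not overlap in any of the 12, and Fbxl20 is at 71.8 against 109.5 and Fbxw10 at 0.875 against 1.59.

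The 3 lower members included the most abundant one. Fbxw8 (chromosome 5, 118064981 to 118155458) joins the cullin Cul7 in a ligase needed for growth of the fetus and placenta. Its CPM was 122.9, 120.8 and 126.7 in WT and 101.3, 105.9 and 99.8 in cKO. All cKO libraries were below WT, and Fbxw8 fell by 0.27 ± 0.06 on the log2 scale. Cul7, from the list of other cullins, was at 140.8 ± 5.69 CPM in WT and 126.5 ± 6.35 in cKO (log2 -0.16 ± 0.06). It did not pass (adjusted p = 0.125, edgeR), although its groups did not overlap. Fbxw8 shares exonic bases with the antisense gene Gm9754, which has no row in the table.

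Fbxl7 (chromosome 15, 26540459 to 26895564), reported to act on the mitotic kinase Aurora A, was at 29.03, 31.6 and 30.4 CPM in WT and 24.9, 21.3 and 23.3 in cKO. It fell by 0.39 ± 0.07 on the log2 scale, the lowest value of the 62 members, and by 0.34 to 0.45 when 1 library was left out. Fbxw4 (chromosome 19, 45578257 to 45660193), at the locus of the limb mutant dactylaplasia, was at 21.3, 22.4 and 20.5 against 17.5, 16.7 and 19 CPM in the same order. It fell by 0.27 ± 0.07 on the log2 scale, with cKO 37 nearest to WT, and shares exonic bases with Gm17018 on the opposite strand.

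Several of the best known receptors did not pass. Fbxw7, the tumour suppressor that marks cyclin E, Myc, Jun, Notch and Mcl1, was at 25.3, 21.7 and 26.1 CPM in WT and 24.1, 23.9 and 20.8 in cKO (log2 -0.09 ± 0.09, 95% confidence interval -0.28 to 0.10). Fbxw11, which marks beta-catenin and the NF-kB inhibitor, was at 77.3, 77.7 and 78.9 against 66.2, 72.0 and 73.7 CPM. All cKO libraries were below WT in Fbxw11, yet its adjusted p was 0.145 (log2 -0.14 ± 0.06, edgeR). Its paralog Btrc, an F-box gene under another name, was at 38.6 ± 1.64 and 36.7 ± 1.34 CPM (adjusted p = 0.473, edgeR).

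Fbxo11 was at 76.7, 73.6 and 74.4 CPM in WT and 86.0, 87.6 and 77.9 in cKO (log2 0.16 ± 0.06, adjusted p = 0.113, edgeR). The groups did not overlap, and it passed without cKO 37 (adjusted p = 0.0317). Its target gene Bcl6 was at 4.86 ± 0.182 and 6.05 ± 0.995 CPM (adjusted p = 0.147, edgeR). Fbxl5, the iron sensor that marks Irp2, was at 39.3 ± 0.986 and 43.4 ± 5.71 CPM, with cKO 37 at 49.98 and the other cKO libraries at 40.8 and 39.5. Ireb2, the gene of Irp2, was at 92.2 ± 4.82 and 103.0 ± 3.67 CPM, and neither passed (adjusted p = 0.298 and 0.11, edgeR). Exons of Fbxo11 overlap those of Msh6, and exons of Fbxl5 those of Bst1, both on the opposite strand. With the strand setting unknown, the Fbxo11 and Fbxl5 values are uncertain too.

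Fbxo5 encodes Emi1, which inhibits the anaphase-promoting complex, and was at 6.75 ± 0.786 and 6.15 ± 0.661 CPM. Fbxo7, a proteasome and mitophagy factor, was at 16.5 ± 2.37 and 17.7 ± 0.706. Neither passed (adjusted p = 0.518 and 0.547, edgeR). Nearest to the threshold among the members that did not pass were Fbxo25 (log2 0.23 ± 0.08, adjusted p = 0.0869) and the brain gene Fbxo41 (0.54 ± 0.20, adjusted p = 0.101). Nearest inside it were Fbxl4 (adjusted p = 0.0418) and Fbxw4 (0.0374), with edgeR in all 4.

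A family that includes receptors of sugar-bearing glycoproteins lies in a pair of gene clusters. On chromosome 4, Fbxo6, Fbxo44 and Fbxo2 lie side by side between 148145716 and 148166417, at 11.3 ± 0.529, 5.02 ± 0.243 and 1.06 ± 0.447 CPM in WT. In cKO they were at 10.7 ± 0.5, 6.38 ± 0.921 and 1.32 ± 0.406. On chromosome 7, Fbxo27 and Fbxo17 lie between 28692849 and 28738140, at 3.02 ± 0.418 and 24 ± 1.28 CPM in WT and 2.64 ± 0.442 and 23.4 ± 2.53 in cKO. None of the 5 passed with edgeR, DESeq2 or limma voom (1 at an unadjusted p under 0.05, Fbxo44), and the lowest adjusted p was 0.105, for Fbxo44 (edgeR). Only in Fbxo44 of these 5 were all cKO libraries above WT. Neighbouring members differed widely in level: Fbxo17 was at 9.06 ± 0.105 and Fbxo27 at 1.08 ± 0.12 RPKM in WT.

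F-box genes that carry other names were read alongside. Of 8 listed, 6 had enough counts, and none passed with edgeR, DESeq2 or limma voom (2 at an unadjusted p under 0.05, median log2 0.04). Kdm2a, a histone demethylase with an F-box, was at 101.1 ± 1.31 and 113.5 ± 6.07 CPM (log2 0.17 ± 0.06, adjusted p = 0.086, edgeR), and its groups did not overlap. Kdm2b, which brings a variant Polycomb complex to CpG-rich promoters, was at 37 ± 0.498 and 36 ± 1.8. Skp2 (23.8 ± 2.92 and 25.6 ± 2.32 CPM), the receptor of p27, and Ccnf (9.95 ± 0.965 and 11.8 ± 1.32), cyclin F, overlapped between groups. Without cKO 37, 1 of the listed genes passed, Kdm2a (adjusted p = 0.0302).

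The ligase that the receptors attach to was then compared. Of 32 genes of the SCF core, its ubiquitin-conjugating enzymes and the cycle that adds and removes Nedd8 from cullins, 1 rose, 1 fell and 30 did not pass (6.25% called, against 12.4% of all genes). The list median was -0.08, against 0.01 over all tested genes, and 24 of the 32 values were below 0, against 7842 of all 16089. The groups did not overlap in 13 (40.6%, against 34.6% of all genes), with cKO below in 10 (17.4% of all genes). Without cKO 8 none of the 32 passed, without WT 29 only the rise remained, and without cKO 37 2 fell.

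Glmn, whose product glomulin binds Rbx1 and blocks the recruitment of the conjugating enzyme, rose. Its CPM was 9.16, 8.3 and 7.87 in WT and 12.2, 11.9 and 11.4 in cKO (log2 0.48 ± 0.09, adjusted p = 0.00995, edgeR). Gps1, a subunit of the COP9 signalosome that removes Nedd8, fell, from 92.1, 90.4 and 94.2 to 74.1, 73.4 and 80.4 CPM (log2 -0.28 ± 0.06, adjusted p = 0.0147, edgeR). Both groups were tight in both genes. Glmn was lost without cKO 8 (adjusted p = 0.0521), and Gps1 without WT 29 or cKO 8 (0.0642 and 0.0731).

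Cops6, another signalosome subunit, and Dcun1d3, a factor of Nedd8 ligation, came next (log2 -0.20 ± 0.06 and 0.27 ± 0.09, adjusted p = 0.0667 and 0.0684, edgeR). The core genes were close between groups: Cul1 at 124.2 ± 1.27 and 116.9 ± 5.5 CPM, Skp1a at 108.2 ± 1.54 and 106.6 ± 3.7, and Rbx1 at 48.5 ± 2.79 and 48.4 ± 1.3. Their adjusted p values were 0.35, 0.837 and 0.984 (edgeR). Per length, Skp1a was at 55.3 RPKM and Cul1 at 29.3 in WT, both above every F-box member.

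**Figure D5:**
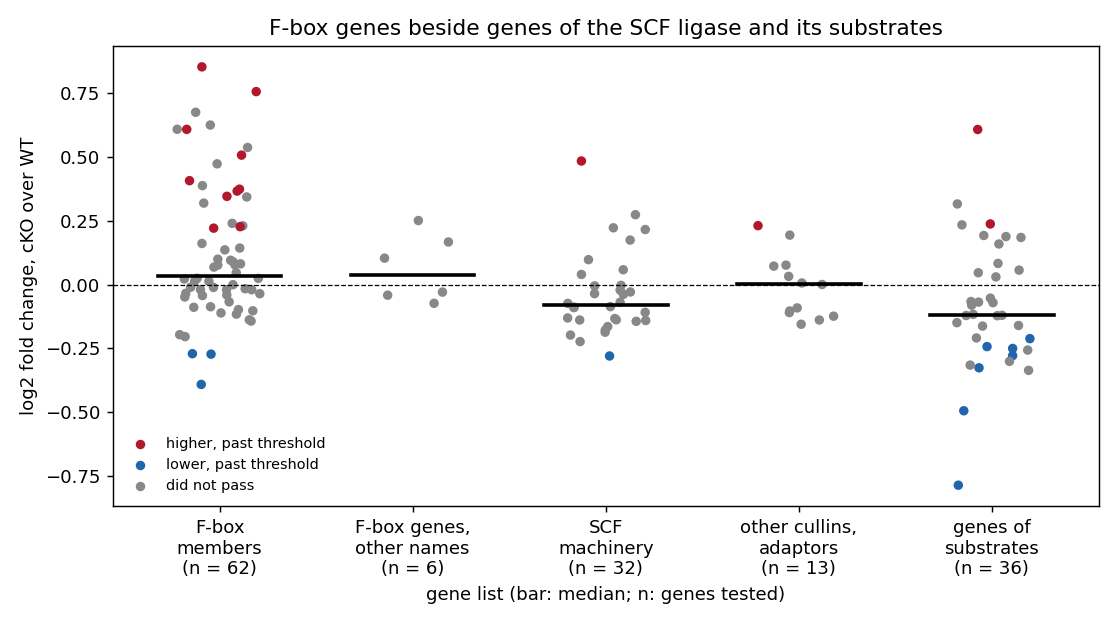
Log2 fold change, cKO over WT (vertical axis), of the tested genes in 5 lists: the 62 F-box members, 6 F-box genes under other names, 32 genes of the SCF machinery, 13 other cullins and adaptors, and 36 genes of substrates (points are genes, bars medians, red and blue past the threshold). The medians are 0.04 in the members, -0.08 in the SCF machinery and -0.12 in the substrates.

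Among 13 tested genes of other cullins and their adaptors, 1 rose and 12 did not pass (7.69% called, against 12.4% of all genes, median 0.00). The groups did not overlap in 6 of these 13 (46.2%, against 34.6% of all genes). Cul5, the scaffold of the SOCS-box ligases, rose from 40.3 ± 1.31 to 47.3 ± 1.46 CPM (log2 0.23 ± 0.06, adjusted p = 0.0291, edgeR). That call was lost without any single library other than cKO 37 (0.0657 to 0.107). Cul4b was at 37.3 ± 0.413 and 42.7 ± 1.76 CPM (adjusted p = 0.0524, edgeR). It passed with upper-quartile scaling, on halved counts and with DESeq2 (0.0341 to 0.0499).

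The genes of proteins that F-box receptors mark were read last. The marking acts on protein, which RNA counts do not measure. Of 36 tested, 2 rose, 7 fell and 27 did not pass (25% called, against 12.4% of all genes), and the median was -0.12. The number that fell was 10 with DESeq2, 9 with the gene length offset, 6 on halved counts or without cKO 37, 4 with upper-quartile scaling, 2 without cKO 8, 3 without WT 14 or WT 29, and 4 without WT 27 or cKO 10. The number that rose was 1 in each omission except that of cKO 37, where it was 2.

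Per2, a clock gene whose product beta-TrCP marks, rose from 15.7 ± 1.94 to 24 ± 1.12 CPM (log2 0.61 ± 0.09, adjusted p = 0.00381, edgeR). Jun, an AP-1 subunit marked by Fbxw7, fell by 0.79 ± 0.13 on the log2 scale, at 371.1, 396.0 and 417.2 CPM in WT and 266.2, 237.7 and 183.1 in cKO (adjusted p = 0.00762, edgeR). Atf4, a stress factor marked by beta-TrCP, fell by 0.33 ± 0.06 (adjusted p = 0.00755, edgeR), and Nfkbia, the NF-kB inhibitor, by 0.49 ± 0.11 (adjusted p = 0.0202, edgeR). In each of the 4 the groups did not overlap. Per2, Jun and Atf4 passed in every setting, whereas Nfkbia was lost without cKO 8 or cKO 10 (0.0541 and 0.0805).

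The other 5 calls among the substrates were near the threshold. Mcl1, a survival factor marked by Fbxw7, fell by 0.24 ± 0.06 on the log2 scale, Cdc25a, a cell cycle phosphatase, by 0.28 ± 0.08, and the cyclin kinase inhibitors Cdkn1a and Cdkn1c by 0.21 ± 0.06 and 0.25 ± 0.07 (adjusted p = 0.0301, 0.0364, 0.0435 and 0.0466, edgeR). Bcl2l11, which encodes the death factor Bim, rose by 0.24 ± 0.06 (adjusted p = 0.0225, edgeR). Each of these 5 calls was lost in at least 5 of the 6 omissions of 1 library (adjusted p up to 0.172). Examples that did not pass were 3 other targets. Ctnnb1, beta-catenin, was at 1088 ± 40.8 and 1049 ± 54.3 CPM, Ccne1, cyclin E1, at 11.9 ± 0.441 and 9.94 ± 1.93, and Notch1 at 92.3 ± 3.47 and 87.9 ± 9.55 (adjusted p = 0.721, 0.205 and 0.588, edgeR). Ccne1 passed, lower, without cKO 10 (0.0357). Ccne1, Ctnnb1 and Notch1 were named after their values were seen.

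Length did not order the fold changes. Across the 62 members Pearson's r between log2 gene length and log2 fold change was -0.01, and across all 16089 tested genes it was 0.01. Genes of 1 set of libraries are not independent replicates, so these describe the libraries only. The median length was 3896 bases in the 10 higher members, 4616 in the 3 lower and 2661 in the 49 that did not pass.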

How the data were processed

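The 6 libraries are total RNA of mouse calvaria. Per the submitters' processing notes, the authors used bcl2fastq, aligned reads to mm10 with TopHat2 2.0.6 and counted them with HTSeq. The deposited values are whole read counts per gene, and RPKM values that the authors scaled by gene length and library total. The annotation and the strand setting were not given in the sources used here. All counts are even (0 odd), so each counted unit adds 2. Counts were tested as deposited, in R 4.3.3 with edgeR 4.0.16: filterByExpr with a minimum count of 10 kept 16089 genes, TMM factors were 0.9519 to 1.072, and the robust quasi-likelihood F test compared 3 cKO with 3 WT libraries, unpaired, with Benjamini-Hochberg adjustment over all 16089 genes and a threshold of 0.05. Standard errors and 95% intervals come from that model. CPM are TMM-scaled, and RPKM served only for levels between genes. The steps were tested on simulated data.

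Members and lists were chosen with earlier results of these data known. Named genes were all members past the threshold, the 2 nearest on either side of it, 12 well-known receptors, Fbxl20, Fbxl2 and the neighbours of Fbxl20, and up to 4 genes per list with the smallest p. Results of 1 member past the threshold are not reported here, though it stays in the counts. Any other gene printed with values was chosen after its values were seen. Of 35 listed SCF symbols 32 were in the file. Exon overlaps come from GENCODE M21 and promoters from RefSeq (GRCm38.p6). Of the 62 tested members, 17 share exonic bases with a gene on the opposite strand, 5 of them past the threshold, and not all are named. Alternatives were RLE and upper-quartile factors, no filter, halved counts, a lowess offset for gene length, DESeq2 1.42.0, limma 3.58.1 voom, and each library left out.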

Additional observations from a re-analysis of the deposited data

How the results depend on the processing

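With RLE factors, no low-count filter, halved counts, the gene length offset, DESeq2 and limma voom the same 13 F-box genes passed, and with upper-quartile factors 12 of them. Leaving out 1 library gave 5 to 16 calls, with 4 to 13 higher and 1 to 3 lower. In the SCF machinery the calls ranged from 0 to 3 when 1 library was left out, with 0 to 1 higher and 0 to 2 lower, and upper-quartile factors gave 2 higher. Over all genes DESeq2 called 18.7%, against 12.4% with edgeR. Why the calls moved with single libraries was not tested. Over the 40 genes named by the rule, 458 of 519 comparisons with an alternative kept direction and side of the threshold, 45 lost a call, 7 gained one and 9 changed sign, all in genes that did not pass. Of all genes with values in the text that were refitted, 12 genes changed sign in some setting, and none of these passed in any setting. Stac2 was at -0.000818 with RLE factors, -0.00330 with no filter, -0.00688 with the length offset and -0.0708 with voom. Rbx1 was at 0.0244 with upper-quartile factors, 0.000155 on halved counts and 0.00983 with the length offset. Fbxo47 was at 0.00619 with upper-quartile factors and 0.0316 with voom, and Skp1a at 0.00619 with upper-quartile factors. Leaving out 1 library gave -0.387 to 0.291 for Stac2, -0.0450 to 0.0334 for Rbx1, -0.308 to 0.188 for Fbxo47, -0.0152 to 0.123 for Cdk12, -0.0426 to 0.118 for Rpl19, -0.105 to 0.0447 for Fbxo17, -0.308 to 0.0423 for Fbxl22 and -0.0775 to 0.00140 for Fbxo30, -0.156 to 0.452 for Mylpf, -0.227 to 0.400 for Tnnc2 and -0.195 to 0.0136 for Tnnt3. No paired analysis was possible because the groups share no label number. Fbxo40, Fbxo16 and Fbxo47 rest on few counts, and their differences were not detectable at this depth.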
